A study of Mus musculus with 12 samples.

Results

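Tnfaip3, Tnip1, Irak3, Zc3h12a, Birc2, Birc3, Traf1 and Ripk2 encode brakes and adaptors of signalling from Toll-like receptors (TLRs) and tumour necrosis factor (TNF) receptors, and they were followed here in mouse spleen. They were chosen as the probe sets whose gene symbol in the array's annotation is one of these 8 names. That gave 7 probe sets for 6 genes, out of 12393 genes on the array. The annotation used here names no probe set for Irak3 (IRAK-M, a kinase-dead relative of the IRAK kinases) or Ripk2 (the kinase that carries NOD signals), so neither was analysed here.

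The series asks how Dusp1, the gene of a phosphatase that inactivates MAP kinases, controls the response to lipopolysaccharide (LPS), the outer membrane lipid of Gram-negative bacteria that TLR4 senses. Spleen RNA from 12 mice was measured on Affymetrix MOE430A 2.0 arrays, 1 mouse per array, in 4 groups of 3. These were mice labelled DUSP1-/- that were given E. coli LPS into the peritoneum (10 µg per g of body weight) and killed after 6 h, DUSP1-/- mice labelled as untreated controls, and DUSP1+/+ mice with LPS or without treatment. They are called knockout LPS, knockout control, wild-type LPS and wild-type control below, with the replicate number of the labels. The controls had no injection, so an effect of the injection itself cannot be told apart from that of LPS. Strain, age and the structure of the deleted allele are not given in the sources used here, and 1 mutant line stands for the genotype.

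When TLR or TNF receptors fire, adaptor proteins gather at the receptor and chains of ubiquitin are built on them, which bring in the kinases that release NF-kB and start the MAP kinase cascades. A20, the product of Tnfaip3, edits and binds such ubiquitin chains, with the help of the A20-binding protein ABIN-1 (Tnip1), and so limits the signal. In many cells NF-kB itself induces Tnfaip3, so that the brake is made in the course of the response it limits.

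Values are the deposited intensities of a probe set, on a linear scale. Of all values 30.8% lay under 20, so an intensity near that is dim. Differences are in log2 units ± limma's standard error (SE), with 3 mice a group, and a difference passed where limma's adjusted p, taken over 22626 probe sets, was under 0.05. Different probe sets bind their targets differently, so levels were compared between groups and not between genes.

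Some arrays stood apart before any gene was tested. The Dusp1 probe set was not lower in knockout arrays: the knockout LPS minus wild-type LPS difference was 0.95 ± 0.41 (adjusted p = 0.528). Its intensity was 2948 to 4996 in knockout LPS arrays and 2116 to 2248 in wild-type LPS arrays. Of all genes, 8.73% were likewise higher in knockout LPS arrays without overlap. The Dusp1 signal thus gave no check of the genotype labels. Markers of spleen were bright on every array, with 730 to 4499 for the B cell gene Cd79a, 142 to 591 for the T cell gene Cd3e and 1768 to 5865 for the macrophage gene Csf1r. Knockout control 1 carried transcripts of red cell precursors (7 of 9 markers measured, mean log2 intensity 10.3, against 5.97 to 9.27 on the other 11 arrays). A pancreas list (8 of 10 measured) averaged 11.9 in knockout control 1, 8.92 in knockout control 3 and 13.0 in wild-type control 1, against 4.33 to 5.69 elsewhere. A liver list (8 of 9 measured) averaged from 4.42 in wild-type control 1 to 9.96 in knockout control 2, and a lung list (8 of 8) was highest on 4 knockout arrays, LPS 1 (7.49), LPS 3 (6.80), control 2 (7.55) and control 3 (7.27). The other 8 arrays had a lung mean of 5.00 to 6.17. Wild-type controls 2 and 3 had Xist intensities of 35 and 47, where the other arrays had 1101 to 3949, and Y-linked Eif2s3y intensities of 316 and 53, where the others had 7 to 10. That is the pattern of male tissue in 2 of 3 wild-type controls and of female tissue in all LPS mice. Sex is therefore partly mixed into the wild-type LPS response, the control comparison and the difference between the LPS responses of the genotypes. A model term for this pattern leaves wild-type control 1 alone to set the wild-type control level. Values and lost calls with that sex term thus rest on 1 control array, the one with the highest pancreas mean. All 7 member probe sets were lowest within their group in knockout control 1, and 6 of the 7 were at their lowest of all 12 arrays there, while 40.5% and 9.51% of all genes were. LPS responses in knockout spleen are therefore given with and without that array. Some are also given without the 3 arrays with pancreas transcripts. That leaves knockout control 2 as the lone knockout control, assumed to vary like the other groups. Of the 7 member probe sets, 5 were highest of the knockout controls on that array, as were 48.4% of all genes. A smaller knockout response in that fit thus cannot be told apart from the choice of control array. The wild-type controls left in that fit are those of male pattern. The part of these transcripts in the members' values was not tested beyond those fits.

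**Figure D1:**
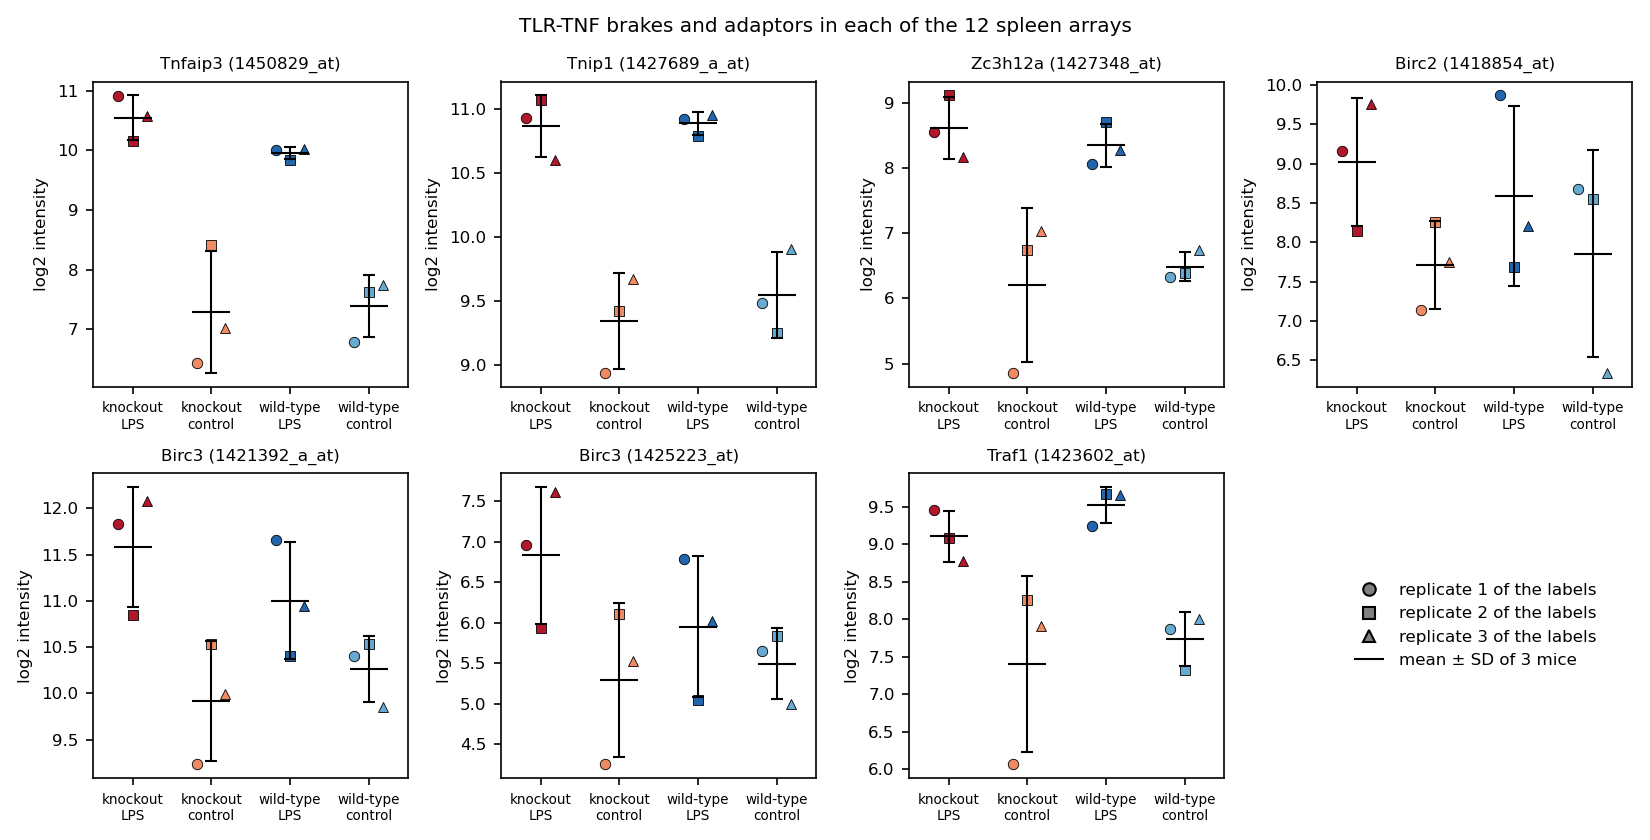
Log2 intensity of each of the 7 member probe sets on each of the 12 arrays, by group. Points are mice, marked by the replicate number of the labels, and lines are the mean ± SD of 3 mice. LPS and control arrays part in both genotypes for Tnfaip3, Tnip1, Zc3h12a and Traf1. Birc2 overlaps between them in both genotypes.

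Tnfaip3, the gene of A20, had the largest response to LPS of the 6 genes in both genotypes. Its intensity was 1914, 1144 and 1529 in knockout LPS spleens, against 86, 341 and 130 in knockout controls. In wild-type mice it was 1025, 911 and 1044 after LPS, against 111, 197 and 215 in controls. Every LPS array lay above every control array. Tnfaip3 rose 9.58-fold in knockout spleen (3.26 ± 0.44, 95% interval 2.28 to 4.24, adjusted p = 0.00111) and 5.92-fold in wild-type spleen (2.57 ± 0.44, 1.59 to 3.54, adjusted p = 0.00685). The knockout response was 2.83 without knockout control 1 and 2.13 (adjusted p = 0.00383) without the 3 arrays with pancreas transcripts. The wild-type response was 3.16 with a term for the sex pattern, a value that rests on wild-type control 1 alone among the controls. Both calls held when any of the 12 arrays was left out, with adjusted p up to 0.00766 in knockout and 0.0380 in wild-type spleen. Over all 12393 genes the difference stood at percentile 99.4 in knockout and 99.2 in wild-type spleen.

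Tnip1 encodes ABIN-1, which binds A20 and ubiquitin. Its intensity was 1948, 2144 and 1552 in knockout LPS spleens, against 490, 687 and 813 in knockout controls. Wild-type spleens read 1937, 1766 and 1977 after LPS, against 715, 609 and 960 in controls. No control array passed 960 and no LPS array lay under 1552. Tnip1 rose 2.87-fold in knockout spleen (1.52 ± 0.23, adjusted p = 0.00212, and 1.32 without knockout control 1) and 2.53-fold in wild-type spleen (1.34 ± 0.23, adjusted p = 0.00685). Its SE was the smallest of the 7 probe sets, and leaving out any of the 12 arrays kept both calls. With the sex term the wild-type call was lost (1.40, adjusted p = 0.0533).

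The promoters of Tnfaip3 and Tnip1 are printed because theirs were the member windows with an NF-kB consensus match, a choice made after the matches were seen. The sequences are RefSeq's 250 bases before an annotated start on GRCm38.p6, both on the minus strand, written 5′ to 3′ in gene order. Capitals mark every match to the 7 motifs searched on both strands.
Tnfaip3, chr10:19015411-19015660: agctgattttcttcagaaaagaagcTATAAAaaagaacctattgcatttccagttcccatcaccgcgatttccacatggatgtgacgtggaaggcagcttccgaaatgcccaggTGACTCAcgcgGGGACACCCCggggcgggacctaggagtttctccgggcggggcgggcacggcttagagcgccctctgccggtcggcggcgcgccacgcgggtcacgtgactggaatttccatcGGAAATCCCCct
Tnip1, chr11:54962941-54963190: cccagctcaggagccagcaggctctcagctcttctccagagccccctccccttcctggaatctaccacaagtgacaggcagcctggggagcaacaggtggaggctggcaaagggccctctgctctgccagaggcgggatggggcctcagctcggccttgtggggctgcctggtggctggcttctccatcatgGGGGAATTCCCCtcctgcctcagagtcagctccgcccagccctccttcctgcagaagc
Tnfaip3 held a TATA motif (TATAAA) from -225 to -220, an AP-1 motif (TGANTCA) from -136 to -130, and matches to the NF-kB consensus (the kB motif) from -125 to -116 and from -12 to -3, counted back from the start. Tnip1 held 3 overlapping matches to the same consensus between -58 and -47. Windows were at hand for 7 of the 8 genes, 10 in all, and no other member window matched that consensus, which was found in 7.25% of all 32851 promoter windows of this length. AP-1 was found in 6.75% of windows and TATAAA in 12.4%. A CRE motif (TGACGTCA, in 1.55% of windows) lay in a Birc2 window from -35 to -28. A pair of narrower kB forms that the consensus includes (in 1.21% and 0.356% of windows) and an ISRE-like motif (2.98%) were in no member window. A match is a run of letters and not a measured binding site.

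Zc3h12a encodes Regnase-1, an RNase that degrades the mRNAs of inflammatory genes such as Il6. Its intensity was 374, 553 and 288 in knockout LPS spleens, against 29, 107 and 131 in knockout controls. In wild-type spleens it read 267, 416 and 309 after LPS, against 80, 84 and 107 in controls. The groups did not overlap, and the value of 29 in knockout control 1 was near the dim end of the array. Zc3h12a rose 5.27-fold in knockout spleen (2.40 ± 0.48, adjusted p = 0.00917), and by 1.72 on the log2 scale without knockout control 1 (adjusted p = 0.00453). In wild-type spleen it rose 3.63-fold (1.86 ± 0.48, adjusted p = 0.0464). The wild-type response no longer passed once 1 of 9 arrays was left out, namely any knockout LPS, wild-type LPS or wild-type control array, with differences of 1.68 to 2.00 and adjusted p up to 0.164, and with the sex term (2.02, adjusted p = 0.168). The knockout call held in each such fit but not when only the knockout groups were fitted (adjusted p = 0.0703).

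Traf1 encodes an adaptor that joins TRAF2 and the cIAP ubiquitin ligases at TNF-family receptors. Its intensity was 704, 544 and 438 in knockout LPS spleens, against 67, 305 and 240 in knockout controls. Wild-type spleens read 605, 814 and 808 after LPS, against 235, 161 and 257 in controls. LPS and control arrays did not overlap in either genotype. Traf1 rose 3.25-fold in knockout spleen (1.70 ± 0.47, adjusted p = 0.0390) and 3.45-fold in wild-type spleen (1.78 ± 0.47, adjusted p = 0.0495). Both calls lay close to the threshold. In knockout spleen the response was 1.03 (adjusted p = 0.0347) without knockout control 1, and the call was lost without any 1 of the 6 LPS arrays or wild-type controls 1 and 2 (differences of 1.52 to 1.86, adjusted p up to 0.144), as it was without the 3 arrays with pancreas transcripts (0.85, adjusted p = 0.162). In wild-type spleen it was lost without any 1 array other than knockout controls 1 and 2 (1.58 to 1.93, adjusted p up to 0.173), and with the sex term (1.65, adjusted p = 0.264).

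Birc3 and its neighbour on chromosome 9, Birc2, encode the ubiquitin ligases cIAP2 and cIAP1, which TRAF proteins bring to TNF receptors. The brighter Birc3 probe set read 3630, 1848 and 4320 in knockout LPS spleens, against 602, 1478 and 1021 in knockout controls. In wild-type spleens it read 3243, 1355 and 1966 after LPS, against 1357, 1479 and 927 in controls. The knockout groups did not overlap, whereas wild-type LPS 2 lay below wild-type controls 1 and 2. Birc3 rose 3.17-fold in knockout spleen (1.67 ± 0.43, adjusted p = 0.0283). That call was lost without knockout LPS 1 (1.54, adjusted p = 0.107), knockout LPS 3 (1.42, 0.111), knockout control 1 (1.32, 0.0768) or knockout control 3 (1.70, 0.0655), and without the 3 arrays with pancreas transcripts (1.06, 0.292). The wild-type difference was 0.74 ± 0.43 (95% interval -0.21 to 1.69, adjusted p = 0.419).

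The dimmer Birc3 probe set read 124, 61 and 195 in knockout LPS spleens, against 19, 69 and 46 in knockout controls. In wild-type mice the LPS spleens had 110, 33 and 65, against control values of 50, 57 and 32. Groups overlapped in both genotypes, and its differences of 1.54 ± 0.58 in knockout (adjusted p = 0.118, 1.01 without knockout control 1 and 0.72 without the arrays with pancreas transcripts) and 0.46 ± 0.58 in wild-type spleen (adjusted p = 0.781) did not pass. In knockout spleen, then, the 2 Birc3 probe sets fell on different sides of the threshold with close point estimates.

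Birc2 had the largest SE of the 7 probe sets. Its intensity was 571, 284 and 871 in knockout LPS spleens, against 141, 307 and 215 in knockout controls. Wild-type spleens read 936, 206 and 297 after LPS, against 410, 375 and 81 in controls. The highest of 3 mice was 2.18 to 5.06 times the lowest within a group, and LPS and control arrays overlapped in both genotypes. The differences of 1.31 ± 0.72 in knockout (95% interval -0.27 to 2.89, adjusted p = 0.298, 1.02 without knockout control 1 and 0.76 without the arrays with pancreas transcripts) and 0.73 ± 0.72 in wild-type spleen (-0.85 to 2.32, adjusted p = 0.695) did not pass. The wild-type value was -0.02 without wild-type control 3.

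**Figure D2:**
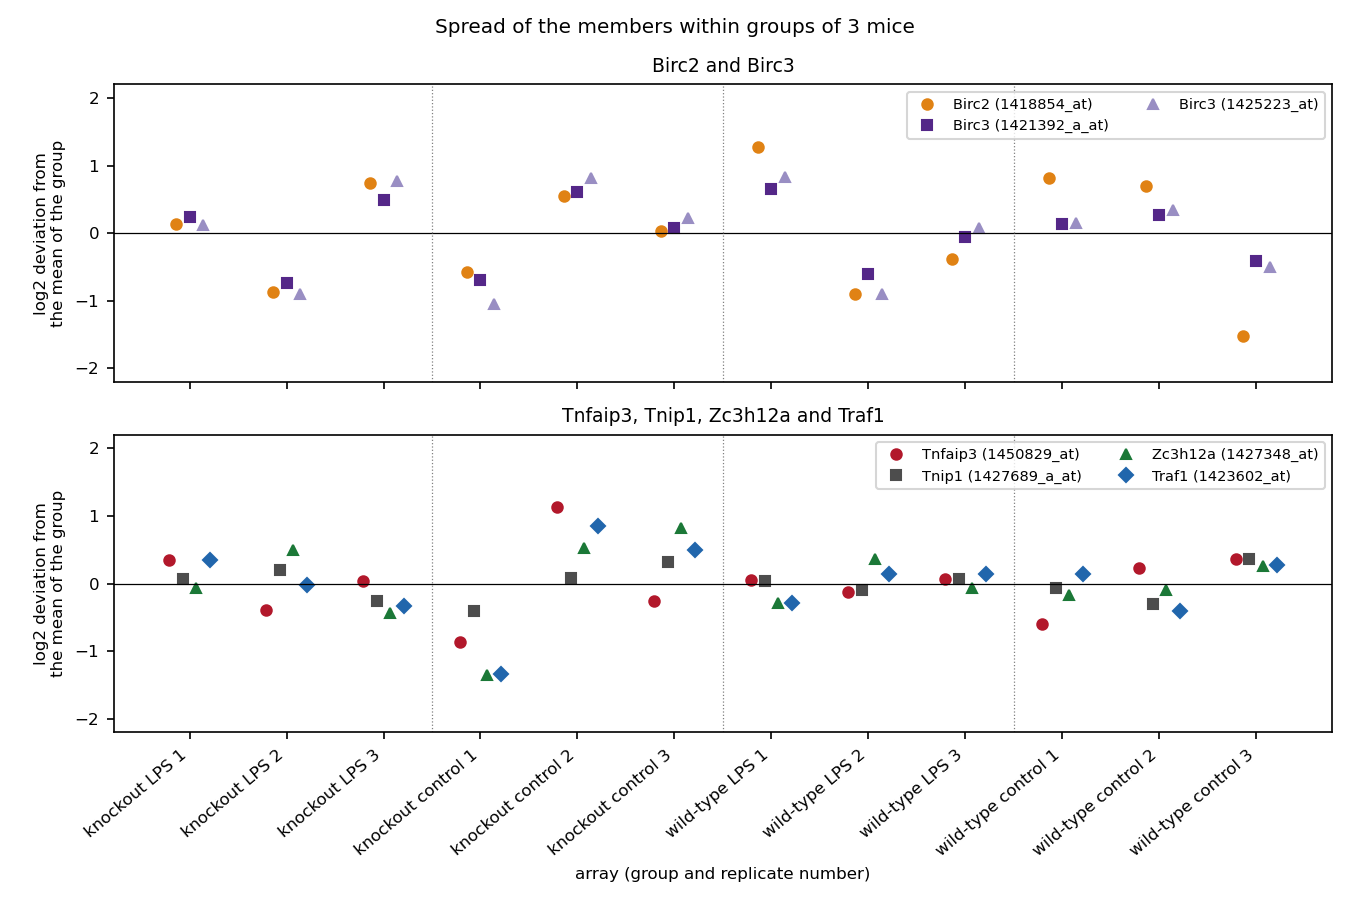
Log2 deviation of each member probe set from the mean of its group, by array. In the upper panel Birc2 and the brighter Birc3 probe set lie on the same side of their group mean on all 12 arrays. In the lower panel all 4 genes lie below their group mean in knockout control 1.

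Birc2 and Birc3 varied together between mice of a group. Birc2 and the brighter Birc3 probe set lay on the same side of their group means on 12 of 12 arrays, and Birc2 and the dimmer one on 11 of 12. Of the other 12392 genes, 424 (3.42%) matched Birc2 on at least 11 arrays and 34 (0.274%) on all 12. The pattern was thus not particular to this pair. The mice kept the same order for Birc2 as for either Birc3 probe set in 3 of 4 groups, a count that was not set against all genes. Tnfaip3 and its partner Tnip1 lay on the same side on 8 of 12 arrays and kept the same order in 1 of 4 groups. With 3 mice a group these counts are descriptions. How far the Birc2 and Birc3 probe sets detect each other's transcripts was not tested.

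Of the 6 genes, 5 rose in knockout spleen, where 5.54% of all genes rose and 15.2% passed in either direction. In wild-type spleen 4 rose, against 3.93% and 8.09% of all genes, and no member fell in either genotype (9.71% of all genes fell in knockout and 4.16% in wild-type spleen). In knockout spleen every LPS array lay above every control array for the 5 called genes (11.3% of all genes did so), and in wild-type spleen for the 4 called genes (10.2%). The median LPS difference of the 6 was 1.68 in knockout spleen, against -0.06 over all genes, and 1.56 in wild-type spleen, against -0.03. The knockout count was 3 without knockout LPS 1 or 3 or without the 3 arrays with pancreas transcripts, and 2 with the knockout groups fitted alone. The wild-type count was 2 without any 1 of the knockout LPS, wild-type LPS or wild-type control arrays, and 1 (Tnfaip3) with the sex term. The genes were chosen with earlier results of these data known, so these counts are descriptions.

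Some lists of leukocyte, stroma and endothelium markers moved with the same contrast. T cell markers (8 of 10) averaged 7.438 to 7.805 in knockout LPS arrays, against 7.426 to 8.938 in knockout controls, an overlap. In wild-type spleen they averaged 6.957 to 7.953 after LPS, against 8.398 to 8.633 in controls. NK and cytotoxic cell markers (6 of 7) overlapped in both genotypes. The macrophage list (11 of 12 measured) averaged 7.76 to 8.09 in knockout LPS arrays, against 8.50 to 8.67 in knockout controls, and 7.31 to 7.37 in wild-type LPS arrays, against 8.44 to 8.89 in wild-type controls. B cell markers (8 of 9) averaged 8.44 to 8.64 in knockout LPS arrays, against 8.96 to 10.1 in knockout controls, and 8.75 to 9.34 in wild-type LPS arrays, against 9.78 to 10.0 in wild-type controls. Neutrophil markers (9 of 10) overlapped, with 7.17 to 7.94 in knockout LPS, 7.19 to 9.01 in knockout control, 7.80 to 8.07 in wild-type LPS and 7.49 to 9.21 in wild-type control arrays. Stroma markers (8 of 8) averaged 7.346 to 8.093 in knockout LPS arrays, against 8.305 to 9.237 in knockout controls. In wild-type spleen they averaged 7.824 to 8.24 after LPS, against 8.86 to 9.397 in controls. Endothelium (8 of 8) and dendritic cell markers (6 of 8) overlapped in knockout spleen. In wild-type spleen they averaged 6.151 to 6.252 and 6.092 to 6.269 after LPS, against 6.647 to 6.985 and 6.581 to 7.159 in controls. Between genotypes after LPS, the macrophage and dendritic cell lists were higher in knockout arrays without overlap, and the B cell list was lower. The other lists of this paragraph overlapped there. The part of cell makeup in the members' LPS responses and genotype differences was not tested. In whole spleen a change in the number of cells and in the RNA per cell cannot be told apart.

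**Figure D3:**
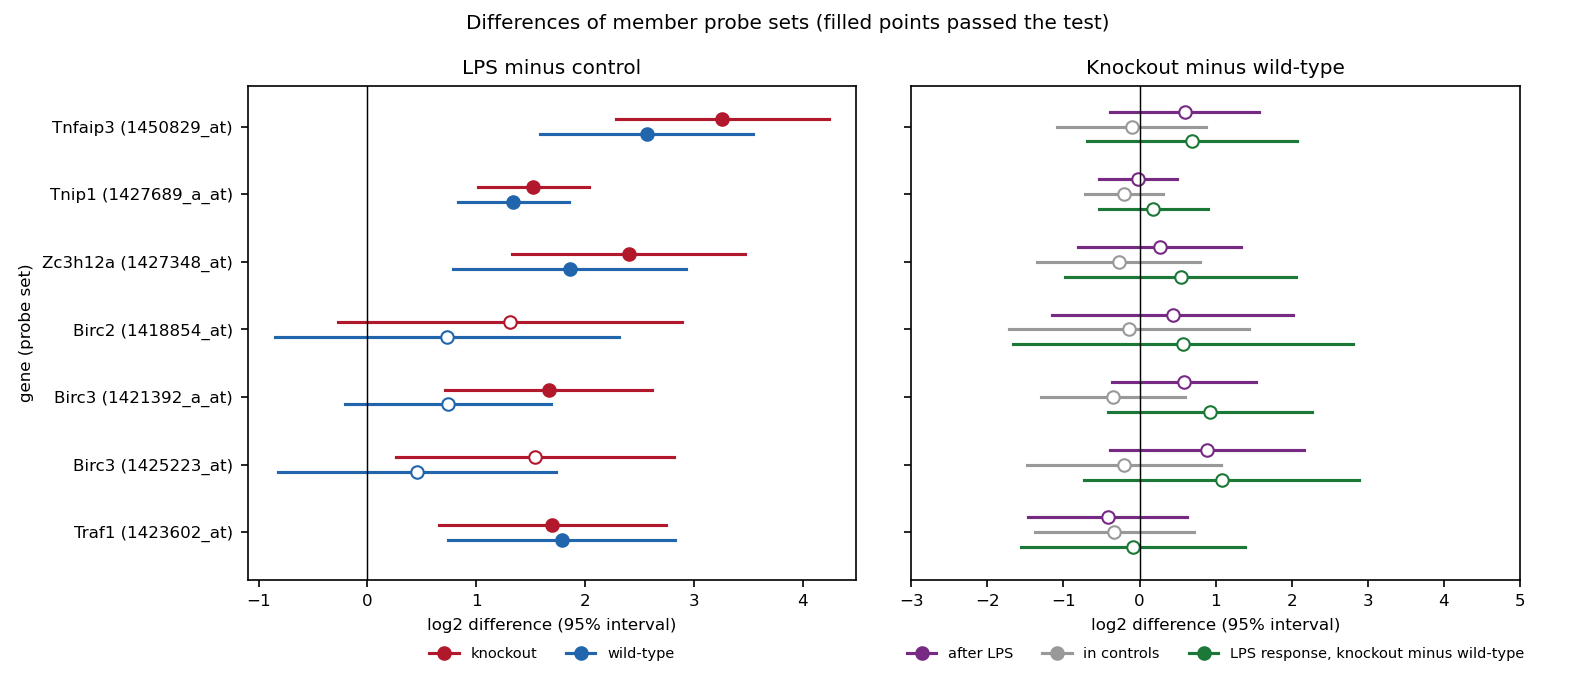
Log2 differences of the 7 member probe sets with 95% intervals, LPS minus control on the left and knockout minus wild-type on the right. Filled points passed limma's test. Of the left-hand values, Tnfaip3 has the largest in both genotypes, and on the right no point is filled and every interval spans 0.

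Between genotypes none of the 6 genes passed. After LPS 0.363% of all genes passed the knockout minus wild-type comparison, and in the controls and in the interaction, which is the knockout LPS response minus the wild-type one, 0 of 12393 did (limma). At an unadjusted p under 0.05, 10.2% of all genes would be called after LPS, 1.42% in controls and 6.46% in the interaction, and none of the 6 was among them in any of the 3.

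Tnfaip3 was the 1 member whose LPS groups did not overlap between genotypes. Its lowest knockout LPS array read 1144 and its highest wild-type LPS array 1044, a separation in this direction that 8.73% of all genes had. The difference was 0.59 ± 0.44 (95% interval -0.38 to 1.57, adjusted p = 0.839), which leaves room for a knockout level from 0.767 to 2.97 times that of wild-type. Tnip1 was at -0.02 ± 0.23 (-0.53 to 0.49, 0.692 to 1.40 times wild-type), the narrowest interval of the 6. Zc3h12a was at 0.27 ± 0.48, Birc2 at 0.43 ± 0.72 and Birc3 at 0.58 ± 0.43 and 0.88 ± 0.58 by its 2 probe sets. Traf1 was the 1 gene besides Tnip1 with a negative value, at -0.42 ± 0.47, with 2 of 3 knockout LPS arrays below every wild-type LPS array. For Birc3 the brighter probe set passed with array quality weights alone (1.02, adjusted p = 0.0440), a setting under which 10.3% of all genes passed.

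In controls the 7 probe sets lay between -0.34 and -0.10 on the log2 scale, with each adjusted p at 1. Groups overlapped each time (2.49% of all genes did not overlap). Knockout control 1 was the lowest knockout control for all 7, so it pulled each of these values down. Values without it are not given singly. Under the alternatives 24 of 189 values changed sign, within -0.96 to 0.82.

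The interaction was 0.69 ± 0.63 for Tnfaip3 (95% interval -0.69 to 2.08), 0.18 ± 0.33 for Tnip1, 0.54 ± 0.69 for Zc3h12a, 0.57 ± 1.01 for Birc2, 0.93 ± 0.61 and 1.08 ± 0.82 for the Birc3 probe sets and -0.09 ± 0.67 for Traf1. Their median over the 6 genes was 0.56, against -0.05 over all genes. Without knockout control 1 the values were 0.26 for Tnfaip3, -0.02 for Tnip1, -0.14 for Zc3h12a, 0.29 for Birc2, 0.58 and 0.56 for Birc3 and -0.76 for Traf1. A response of Birc3 that passed in knockout and not in wild-type spleen is thus not shown to differ between them.

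Genes that followed Tnfaip3 most closely over the 12 arrays were named by the root mean square difference of log2 values centred on each gene's mean, among 8098 genes above a low intensity. The nearest were Il15ra (0.384), which presents interleukin-15, the TNF receptor family member Cd40 (0.411), the growth arrest gene Gadd45g (0.416), the potassium channel subunit gene Kcne4 (0.437) and the polo-like kinase gene Plk2 (0.439), where the median gene stood at 1.67. Il15ra read 455, 420 and 513 in knockout LPS spleens, against 38, 109 and 80 in knockout controls, and 474, 329 and 383 in wild-type LPS spleens, against 66, 74 and 61 in wild-type controls. Like Tnfaip3, all 5 were lowest in knockout control 1, as were 9.51% of all genes. That array entered the choice of the 5 genes, so the shared low point follows in part from the choice. Among the other members Zc3h12a ranked 92nd by this measure, Traf1 173rd, Tnip1 264th, Birc3 334th and Birc2 1057th. The arrays share group and depth of signal, so this is a likeness of pattern only.

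**Figure D4:**
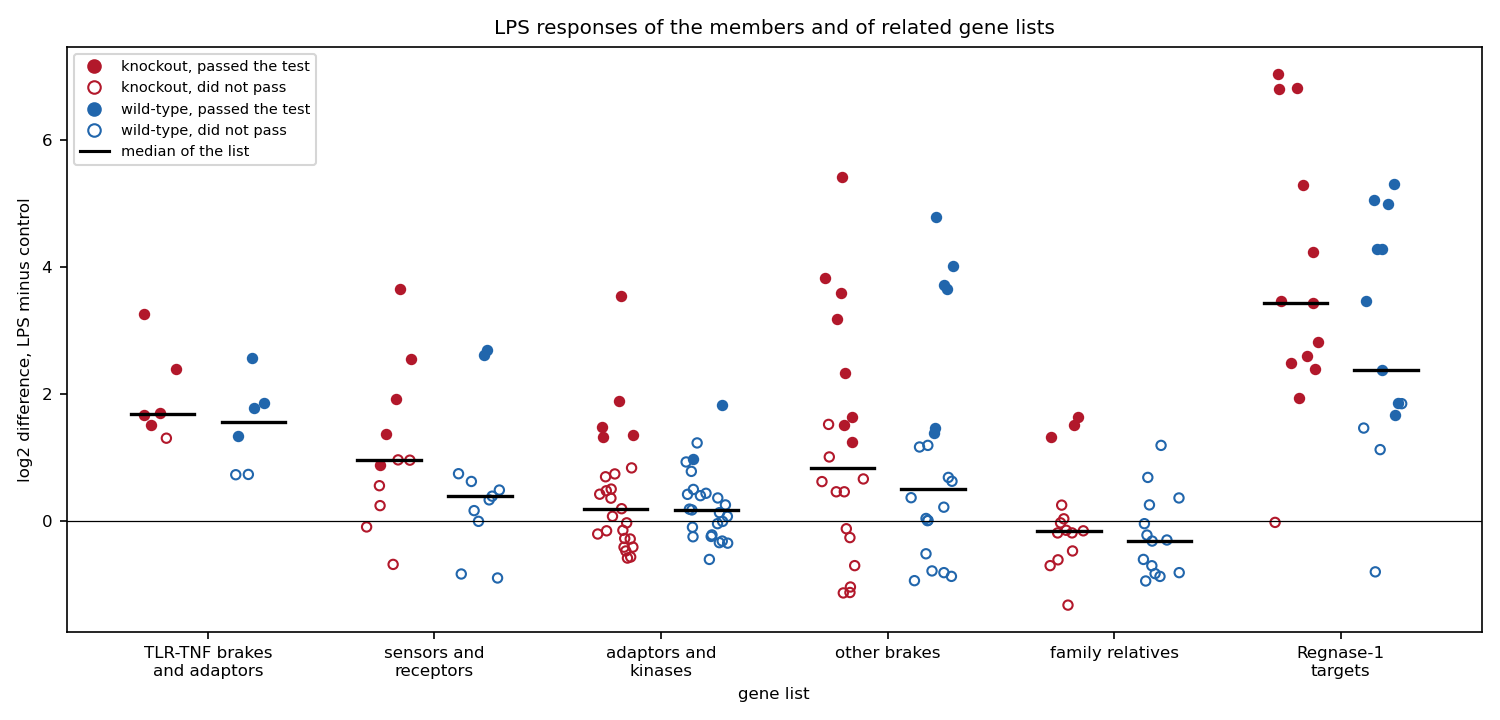
LPS minus control difference of each measured gene of the members and of 5 related lists, in knockout (red) and wild-type spleen (blue), with filled points for genes that passed and a line at the median. The receptor, adaptor and brake lists have called genes above 0 only, and the family relatives have 3 in knockout spleen and 0 in wild-type spleen.

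Upstream of the members, 5 of 11 measured sensors and receptors rose in knockout spleen and 2 in wild-type spleen, and none fell (45.5% and 18.2% of the list, where 15.2% and 8.09% of all genes passed in either direction). The LPS co-receptor Cd14 rose by 3.66 ± 0.23 in knockout (adjusted p = 1.31e-05) and 2.61 ± 0.23 in wild-type spleen (adjusted p = 0.000147). Cd40, whose product signals through TRAF proteins, rose by 2.55 ± 0.41 in knockout (adjusted p = 0.00278) and 2.69 ± 0.41 in wild-type spleen (adjusted p = 0.00370). The TNF receptor 2 gene Tnfrsf1b (1.92 ± 0.47, adjusted p = 0.0236) and Tlr2 (1.37 ± 0.23, adjusted p = 0.00384) rose in knockout spleen, against 0.75 (adjusted p = 0.469) and 0.63 (adjusted p = 0.160) in wild-type spleen, which did not pass. The Tnfrsf1b call was lost without knockout LPS 1, 2 or 3 (adjusted p up to 0.0755), and that of Tlr2 without the 3 arrays with pancreas transcripts (1.03, adjusted p = 0.0695). Without knockout control 1 the knockout responses were 3.64 for Cd14, 2.11 for Cd40, 1.89 for Tnfrsf1b and 1.20 for Tlr2. Without the arrays with pancreas transcripts Cd40 was at 1.68 and Tnfrsf1b at 3.10, and both passed.

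Of 25 measured adaptors and kinases 5 rose in knockout and 2 in wild-type spleen, and none fell. These were 20% and 8% of the list, and the wild-type share was close to the 8.09% of all genes that passed in either direction. Of all genes, 5.54% rose in knockout and 3.93% in wild-type spleen. Their median was 0.20 in knockout and 0.18 in wild-type spleen, nearer to all genes than that of the members. Map3k8, which encodes the TPL2 kinase upstream of ERK, rose by 3.54 ± 0.36 in knockout (adjusted p = 0.000236) and 1.83 ± 0.36 in wild-type spleen (adjusted p = 0.0136), and the wild-type call was lost without wild-type LPS 3 or wild-type control 1 (adjusted p up to 0.0662). The adaptor gene Myd88 rose by 1.48 ± 0.24 in knockout (adjusted p = 0.00300) and 0.99 ± 0.24 in wild-type spleen (adjusted p = 0.0346), a call lost without knockout LPS 1, any wild-type LPS array or wild-type controls 1 or 2 (adjusted p up to 0.117). Cflar, which encodes the caspase-8 regulator c-FLIP, rose by 1.89 ± 0.36 in knockout spleen (adjusted p = 0.00659). Its wild-type difference was 1.23 ± 0.36 (adjusted p = 0.0696), and it passed without knockout LPS 2 (0.0372) and with arrays shifted to 1 median (0.0446). The ubiquitin ligase gene Peli1 rose in knockout spleen by 1.36 ± 0.36 (adjusted p = 0.0298), a call lost without any knockout array other than knockout control 2 (1.03 to 1.43, adjusted p up to 0.105) and without the 3 arrays with pancreas transcripts (0.47, adjusted p = 0.413). Without knockout control 1 the knockout responses were 3.31 for Map3k8, 1.21 for Myd88 and 1.66 for Cflar, and all 3 passed. With the sex term the wild-type responses of Map3k8 (2.06, adjusted p = 0.0650) and Myd88 (1.05, adjusted p = 0.147) did not pass.

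Of 20 other measured brakes 8 rose in knockout and 6 in wild-type spleen, and none fell. These were 40% and 30% of the list, where 15.2% and 8.09% of all genes passed in either direction. Il1rn, which encodes the interleukin-1 receptor antagonist, rose 42.5-fold in knockout (5.41 ± 0.35, adjusted p = 1.57e-05) and 27.4-fold in wild-type spleen (4.78 ± 0.35, adjusted p = 5.29e-05). The repressor gene Atf3 rose by 3.83 ± 0.42 in knockout (adjusted p = 0.000323) and 3.71 ± 0.42 in wild-type spleen (adjusted p = 0.000716). Socs1, a brake on cytokine receptor signalling, rose by 3.58 ± 0.46 in knockout (adjusted p = 0.000818) and 4.02 ± 0.46 in wild-type spleen (adjusted p = 0.000746). Usp18, a brake on interferon signalling, rose by 3.19 ± 0.42 in knockout (adjusted p = 0.000894) and 3.65 ± 0.42 in wild-type spleen (adjusted p = 0.000746). Without knockout control 1 the knockout responses were 5.29 for Il1rn, 3.44 for Atf3, 3.37 for Socs1 and 3.18 for Usp18. Without the arrays with pancreas transcripts Il1rn was at 4.69 and Atf3 at 2.81, and both passed. With the sex term the wild-type responses of Socs1 and Usp18 were 4.84 and 4.43.

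Relatives of the members by gene family were a further list. Of 14 measured, 3 rose in knockout spleen, 0 passed in wild-type spleen (limma, with 1 at an unadjusted p under 0.05) and none fell. The medians were -0.14 and -0.30. Calls made up 21.4% and 0% of the list, where 15.2% and 8.09% of all genes passed in either direction. The A20-binding relative Tnip2 (1.65 ± 0.40, adjusted p = 0.0220), Traf4 (1.52 ± 0.32, adjusted p = 0.0110) and Traf6 (1.33 ± 0.32, adjusted p = 0.0199), a ubiquitin ligase of TLR signalling, were the 3. Without knockout control 1 they were at 1.20, 1.55 and 1.05. Tnip2 was lost without knockout LPS 1 or 3 or knockout control 3 (adjusted p up to 0.0886), Traf4 without knockout LPS 1 (0.0522), and Traf6 without knockout LPS 1 or 3 or knockout control 1 or 3 (up to 0.0824). None of the 3 passed without the arrays with pancreas transcripts, with 0.76 (adjusted p = 0.252) for Tnip2, 1.57 (0.0648) for Traf4 and 0.61 (0.286) for Traf6. In wild-type spleen Tnip2 was at 1.19 ± 0.40 (adjusted p = 0.115), and it passed without knockout control 1 (0.0397) or 2 (0.0454), with array quality weights (0.0330) and with the wild-type groups fitted alone (0.0250). Tnip2 and Traf4 also stand among the 20 brakes and Traf6 among the 25 adaptors.

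Downstream of Zc3h12a, 12 of 13 measured mRNAs described as Regnase-1 targets, Zc3h12a itself among them, rose in knockout spleen and 9 in wild-type spleen, and none fell. These were 92.3% and 69.2% of the list, where 15.2% and 8.09% of all genes passed in either direction. The median was 3.43 in knockout and 2.38 in wild-type spleen. Several of them were dim in controls: Il6 read 3021, 2069 and 3063 in knockout LPS spleens, against 11, 59 and 13 in knockout controls, and 603, 183 and 585 in wild-type LPS spleens, against 13, 11 and 14 in wild-type controls. With controls near the dim end the sizes depend on how low values are treated, and are given as fitted and with 16 added to each intensity. In knockout spleen Il6 rose by 7.04 as fitted and 6.11 with 16 added, the chemokine genes Cxcl2 by 6.81 and 5.98 and Cxcl1 by 6.80 and 6.18, and Ptgs2, the gene of the prostaglandin synthase COX-2, by 5.29 and 3.95. In wild-type spleen Cxcl2 rose by 5.30 and 4.39, Cxcl1 by 5.06 and 4.55, Il6 by 4.99 and 3.87, and Ifng, the interferon gamma gene, by 4.28 and 3.22. All of these passed in both fits (limma adjusted p up to 0.00214). Without the arrays with pancreas transcripts the knockout responses of Il6, Cxcl2 and Cxcl1 were 5.50, 5.58 and 5.37, and without knockout control 1 they were 6.59, 6.36 and 6.24, with Ptgs2 at 5.14. With the sex term, and so against wild-type control 1 alone, the wild-type response of Cxcl1 was 6.28. Without the arrays with pancreas transcripts, which leaves only the wild-type controls of male pattern, that response was 4.45. None of the 5 lists had a gene that passed in either genotype comparison or in the interaction (limma). At an unadjusted p under 0.05, 2 of 11 receptors, 5 of 25 adaptors, 2 of 20 brakes, 2 of 14 relatives and 5 of 13 Regnase-1 targets would be called after LPS, where 10.2% of all genes would. In the interaction these were 2, 4, 1, 1 and 5, against 6.46% of all genes, and in controls 1 target and 0 of the others, against 1.42%.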

How the data were processed

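Each array held the spleen RNA of 1 mouse. Expression values came from RMA, run by the authors with the affy package for R, per the series' design text. Its version and the genome build are not given in the sources used here. Each deposited value is a probe set's intensity, a whole number on a linear scale, with array medians from 47 to 64. They were log2-transformed with no further scaling. Control probe sets (64 of 22690) were left out. The platform's annotation gave 1 gene for 20380 of the 22626 tested probe sets, several for 691 and no gene for 1555. The brightest probe set that names a gene alone stood for it (12393 genes), and every member probe set was reported. A model of 4 group means over 12 arrays was fitted by lmFit and eBayes of limma (version 3.58.1, under R 4.3.3), which left 8 residual degrees of freedom and added 2.722 from the prior. Tests were two-sided, with p-values adjusted per contrast by Benjamini-Hochberg over 22626 probe sets and a threshold of 0.05. It was tested on simulated data. The 5 contrasts were the LPS response in each genotype, the genotype difference after LPS and in controls, and the interaction.

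The members, lists and tests were chosen with earlier results of these data known. From each list up to 4 called genes with the largest difference in a contrast were named, with the 5 genes nearest to Tnfaip3 (candidates above the 40th percentile of mean signal) and Dusp1. The alternatives, 28 in all, changed the scaling, the low values, the variance model, the probe set, the threshold and the arrays used, of which 2 on erythroid transcripts were chosen after seeing the data. The arrays' number and their signal over background limit the precision. Motifs were searched in RefSeq windows of 250 bases, and the 50 bases after the start were not used.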

Additional observations from a re-analysis of the deposited data

How the results depend on the processing

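Of 28 alternatives, 27 gave a gene a value in the LPS responses and in the genotype difference after LPS, and 26 in the interaction. Tnfaip3 passed in both genotypes throughout, and Tnip1 in all but the wild-type fit with the sex term. The 5 members called in knockout spleen became 2 (Tnfaip3 and Tnip1) with only the knockout groups fitted, 3 with the replicate block, 3 without the 3 arrays with pancreas transcripts, 3 with pancreas level as a covariate, and 3 to 5 with 1 array left out. The 4 called in wild-type spleen became 2 with the pancreas covariate, 1 with the sex term, 3 with the replicate block and 2 to 4 with 1 array left out. After LPS 1 member, Birc3, passed between genotypes with array quality weights, where 1280 of 12393 genes (10.3%) did, and 0 with any array left out. In controls and in the interaction 0 passed under every alternative run.

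A check for pairing by replicate number was mixed. Of 12 same-numbered pairs, 5 correlated over 0.1 in their deviations from group means and 5 correlated best with their own number. With 3 mice a group some pairs would do so by chance, and no chance level was worked out. The r ran from -0.29 (knockout LPS 3 and knockout control 3) to 0.626 (knockout LPS 2 and wild-type LPS 2). A shared batch was not tested. Genes called ranged from 988 to 2504 (1889 as reported) in knockout and 389 to 1890 (1002) in wild-type LPS responses, 0 to 1280 (45) after LPS, 0 to 155 (0) in controls and 0 to 102 (0) in the interaction. Of called genes 36.3% were higher after LPS in knockout spleen, against 55.1% with arrays shifted to 1 median and 47.2% with cyclic loess. In wild-type spleen these were 48.6%, 59.5% and 54.2%. The cause of these changes was not tested.

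Values that changed sign belonged to no call. In wild-type spleen the Birc2 response was -0.089 with the sex term and from -0.025 to 1.19 with 1 array left out. The Peli1 response there, -0.00035 as reported, was 0.12 with 1 median, 0.0047 with cyclic loess, 0.00051 with pseudocount 16, 0.022 with the sex term, 0.12 without the 2 arrays of highest erythroid level, and -0.21 to 0.20 with 1 array left out. After LPS the genotype difference of Tnip1 was 0.018 with 1 median, 0.0014 with quantile normalization, 0.061 with cyclic loess and -0.12 to 0.11 with 1 array left out, and that of Birc2 -0.018 to 1.07 with 1 left out. The interaction of Tnfaip3 was -0.14 and that of Birc2 -0.38 without the pancreas arrays. Without the 2 erythroid arrays that of Zc3h12a was -0.091 and that of Birc2 -0.061. With 1 array left out it ran from -0.020 to 0.35 for Tnip1, -0.14 to 0.95 for Zc3h12a and -0.76 to 0.34 for Traf1. Traf1 also read 0.011 with 1 median, 0.0093 with cyclic loess, 0.053 with the sex term and 0.16 with the erythroid covariate. For the genotype difference in controls the probe sets were summarised only: 24 of 189 values changed sign, within -0.96 to 0.82, and 0 were called. That summary was chosen after the values were seen.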
